A study of Homo sapiens with 2 samples.

Results

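RNase P and RNase MRP are a pair of related RNA-protein enzymes, and their components were followed here in the human colorectal carcinoma cell line HCT116 after knockdown of PHF5A, a protein of the SF3b splicing complex. The members were taken by gene symbol: the RNAs RMRP and RPPH1 and the protein genes POP1, POP4, POP5, POP7, RPP25, RPP30, RPP38 and RPP40. These 10 genes filled 12 of the 50867 gene rows, because RMRP and RPPH1 had 2 rows each. Both groups were HCT116 cells, one transfected with a control siRNA and the other with an siRNA against PHF5A, and there was 1 library of total RNA in each. With single libraries, differences cannot be set against a spread between replicates, and p-values are left out. The members were selected on the deposited counts and FPKM of RMRP and RPPH1 in these same libraries, so all their values are a description.

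RNase P removes the 5′ leader from precursor tRNAs, and its RNA subunit, H1 RNA encoded by RPPH1, is the catalyst. RNase MRP has a related RNA, encoded by RMRP, and acts on the precursor of ribosomal RNA in the nucleolus; inherited RMRP variants cause cartilage-hair hypoplasia. Most of the protein subunits are shared between both enzymes. RMRP and RPPH1 are transcribed by RNA polymerase III from promoters that lie upstream of the gene, of the same type as those of 7SK and U6 RNA.

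The libraries summed to 26552789 counts (control siRNA) and 25897412 (PHF5A siRNA, called knockdown). PHF5A had 367 and 91 counts, a CPM ratio of knockdown to control of 0.254 (95% exact counting interval 0.200 to 0.321), in the direction of its label. CPM are counts scaled by the library total, and each interval covers counting error alone. Levels are given as FPKM, fragments scaled by row length and library total, and a row is called expressed where its higher library reached 1 FPKM. Over the 8957 expressed rows the log2 ratio of knockdown to control, with 1 added to each FPKM, had a median of -0.15; over the same rows TPM rescaling moved it to -0.48 and upper-quartile scaling to 0.063. Of the 10 colon epithelium markers 6 were expressed, namely KRT8, KRT18, KRT19, EPCAM, CDH1 and CDX2, of which CDX2 had 822 and 367 counts (log2 ratio -0.93) and the others lay between -0.18 and 0.26, while CDX1 and CDH17 had 0 counts in both libraries. Of 15 heart muscle markers, 14 were at least 2-fold lower in the knockdown library, beside 6.2% of all expressed rows. The summed level of the 15 was 300.4 FPKM with control siRNA against 3.34 with PHF5A siRNA, and 7 of them had 0 counts in the latter. Of 7 fibroblast markers 4 were expressed and 3 of these were at least 2-fold lower. By counts, 6 of the 7 had an interval below 1. Among them were COL1A2, with 352 and 7 counts, and LUM, with 60 and 0, both under 1 FPKM. Of the blood markers 1 of 7 and of the hepatocyte markers 3 of 4 were expressed, and none of those was 2-fold different. The part of these marker differences between the libraries in the values below was not tested.

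The RNAs themselves are shown first, because the deposited table counted each of them in overlapping entries. Both run on the minus strand of GRCh38, RMRP at chr9:35657751-35658018 and RPPH1 at chr14:20343075-20343407, of which the stretch chr14:20343108-20343407 from the 5′ end is printed. The sequences are those of GENCODE release 29. In RMRP the capitals mark the 4 bases of the 268-base entry that the 264-base entry lacks, 1 at the 5′ end and 3 at the 3′ end; RPPH1 is in lower case throughout.
RMRP: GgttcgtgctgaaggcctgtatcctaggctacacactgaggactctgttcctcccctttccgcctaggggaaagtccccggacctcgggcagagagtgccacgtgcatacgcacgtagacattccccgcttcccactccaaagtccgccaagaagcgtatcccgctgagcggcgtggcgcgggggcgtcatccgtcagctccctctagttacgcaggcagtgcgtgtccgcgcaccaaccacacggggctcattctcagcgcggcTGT
RPPH1: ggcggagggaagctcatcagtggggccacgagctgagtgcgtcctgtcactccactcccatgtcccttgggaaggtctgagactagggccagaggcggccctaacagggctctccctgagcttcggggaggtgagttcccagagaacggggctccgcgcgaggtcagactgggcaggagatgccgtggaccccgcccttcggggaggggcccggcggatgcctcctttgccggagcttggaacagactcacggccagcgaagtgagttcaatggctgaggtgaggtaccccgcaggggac
Their GC content was similar, 63.1% in the 268-base RMRP entry and 64.6% in RPPH1.

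RMRP, the RNA of RNase MRP, was lower in the knockdown library. Summed over both rows its counts were 236430 with control siRNA and 78580 with PHF5A siRNA, or 33725 and 11423 FPKM. The log2 ratio was -1.56, which is -1.41 relative to the median of the expressed rows, and by CPM RMRP was 2.93-fold lower (2.91 to 2.96). It took 0.890% of all control counts (exact binomial interval 0.887% to 0.894%) and 0.303% of the knockdown counts (0.301% to 0.306%). Of the 8957 expressed rows, 134 had a lower log2 ratio than the RMRP sum. The log2 ratio of the sum lay between -1.98, with each library rescaled to TPM, and -1.28, with upper-quartile scaling.

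The rows of RMRP did not move alike. The 264-base entry (ENSG00000277027, chromosome 9, 35657754 to 35658017) had 236402 control counts and 46866 knockdown counts. The 268-base entry (ENSG00000269900, chromosome 9, 35657751 to 35658018) had 28 and 31714. The longer entry thus took 0.0118% of the control counts of the locus and 40.4% of the knockdown counts, although it differs by 4 bases alone. Taken by themselves the log2 ratios were -2.30 for the shorter and 9.86 for the longer entry, so the direction for RMRP turns with the row that is read. These rows cover the same RNA and neither is a measure of it alone. The treatment of reads that match both entries, not given in the sources used here, bears on the split, and the part of that assignment in the lower sum was not tested. Other short loci with overlapping entries were looked up after the values were seen: 5 pairs of rows of implied length under 700 bases overlapped over at least 80% of the shorter span and had at least 1000 counts together. Their split between entries differed less: for SCARNA2, a guide RNA of Cajal bodies, the first entry took 10.9% of the control and 8.47% of the knockdown counts, and for the telomerase RNA TERC 2.63% and 0.601%. The pair of SCARNA10 was at 3.45% and 1.93%, that of RPPH1 at 0.00259% and 0.00437%, and COX8A had all but 1 of 5569 and all but 2 of 6785 counts of its pair. Among these loci the summed log2 CPM ratio was lowest for RMRP, at -1.55, and lay between 0.077 for SCARNA10 and 0.50 for RPPH1 at the others.

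RPPH1, the RNA of RNase P, was higher in the knockdown library. Summed over its rows it had 695124 and 961534 counts, or 78608 and 111485 FPKM, a log2 ratio of 0.50, which is 0.65 above the median of the expressed rows. By CPM it was 1.42-fold higher (1.41 to 1.42), and its share of all counts was 2.62% (2.61% to 2.62%) in the control and 3.71% (3.71% to 3.72%) after knockdown. Nearly all counts were in the 333-base entry (ENSG00000277209), with 695106 and 961492. The 638-base entry of that name (ENSG00000259001, chromosome 14, 20343048 to 20343685), which contains the shorter one and runs into the start of PARP2, had 18 and 42 counts. The log2 ratio of RPPH1 was 0.083 with TPM rescaling and 0.78 with upper-quartile scaling, so its size depends on the library total that is used. All rows of implied length under 500 bases together took 18.8% of the control and 27.5% of the knockdown counts; with these rows left out of the library total RPPH1 was at 0.67 and RMRP at -1.40.

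**Figure D1:**
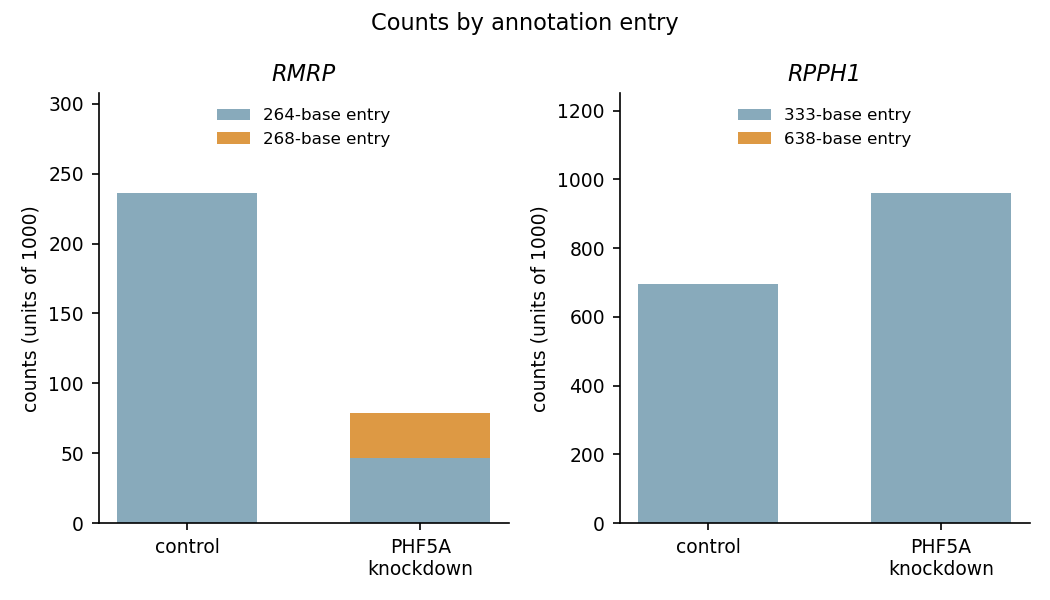
Counts (vertical axis in units of 1000, from 0) of RMRP and RPPH1 in the control and PHF5A knockdown libraries, stacked by annotation entry, with 1 library per bar. The RMRP bar drops from 236430 to 78580 counts and the 268-base entry is visible in the knockdown library alone, while RPPH1, nearly all of it in the 333-base entry, goes from 695124 to 961534 counts.

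A ratio of counts within a library does not use the library total. There were 2.94 RPPH1 counts per RMRP count in the control library (2.93 to 2.95) and 12.2 in the knockdown library (12.1 to 12.3). This ratio was 4.16-fold higher in the knockdown library (4.13 to 4.20). Per length, RPPH1 had 2.33 times the FPKM of RMRP in control cells and 9.76 times in knockdown cells. These intervals cover counting error alone, and the ratio rests on the summed RMRP rows.

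Both RNAs were also set beside other short, abundant rows: 57 rows of implied length under 500 bases (from count and FPKM) and at least 1000 counts in the higher library, with RMRP as a sum. Their median log2 CPM ratio was 0.039, and 29 were above 0. RMRP was the lowest of the 57 at -1.55. The 5 rows closest to it were RPL21P75 at -0.72, RPL3P4 at -0.68, HIST1H2AM at -0.62, AC004453.8 at -0.60 and HIST1H2BO at -0.58, among them ribosomal protein pseudogenes and histone genes. No row lay between RMRP and -0.72. RPPH1 stood 48 from the lowest, at 0.50. The 5 rows closest to RPPH1 were SCARNA2 at 0.51, the telomerase RNA entry at 0.49, RN7SL2 at 0.48, RN7SL1 at 0.53 and HIST1H4K at 0.45. With 2 libraries, likeness here rests on 1 ratio per row.

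**Figure D2:**
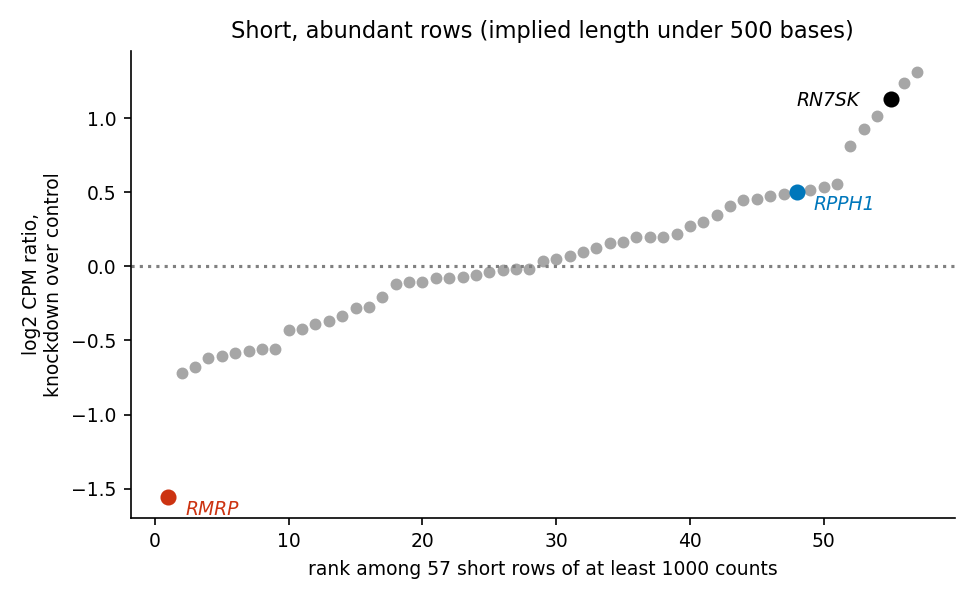
Log2 CPM ratio of knockdown to control (vertical axis) of 57 rows of implied length under 500 bases with at least 1000 counts, ordered from the lowest (horizontal axis, rank). Each point is 1 row; RMRP, summed over its rows, is lowest at -1.55, apart from the next row at -0.72, and RPPH1 lies at 0.50.

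RMRP and RPPH1 each share their upstream region with a protein gene that is read the other way, so the stretch between the starts is printed next. Both are on the minus strand, 5′ to 3′ toward the RNA, from the RefSeq promoter table (GRCh38.p14), and each begins beside the first base of the neighbouring gene. The RMRP stretch, chr9:35658042-35658289, stops short of the RNA, and the RPPH1 stretch, chr14:20343385-20343581, includes the first bases of the RNA. Capitals mark every ATGCAAAT, the octamer bound by OCT1, and every TATAA, the core of a TATA box, on either strand.
RMRP upstream: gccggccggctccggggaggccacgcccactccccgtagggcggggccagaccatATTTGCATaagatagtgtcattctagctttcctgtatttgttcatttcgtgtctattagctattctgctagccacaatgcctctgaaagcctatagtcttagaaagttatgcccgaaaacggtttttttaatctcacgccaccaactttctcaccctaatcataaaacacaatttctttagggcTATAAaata
RPPH1 upstream: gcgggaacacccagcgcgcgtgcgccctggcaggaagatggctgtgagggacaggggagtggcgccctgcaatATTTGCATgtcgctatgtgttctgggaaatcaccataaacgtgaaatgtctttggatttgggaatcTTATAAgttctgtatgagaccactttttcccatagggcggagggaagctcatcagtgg
In RMRP the octamer lay 209 to 216 bases before the first base of the 268-base entry, and TATAA 28 to 32 bases before it. In RPPH1 the octamer lay 94 to 101 bases before the first base, and TATAA 30 to 34 bases before it on the strand of the RNA and, overlapping it, 31 to 35 on the other. Of all 35116 promoter windows of 300 bases in that table, 1.77% held the octamer, 20.4% held TATAA and 0.575% held both. Of the protein members, 7 had a window (POP1 had none), 0 of which held the octamer and 1, RPP25, held TATAA. A match in letters is a description and not a binding site.

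The neighbours that share an upstream region with RMRP and RPPH1 were both higher in the knockdown library, while the RNAs themselves differed in direction. Between the first bases of CCDC107 and RMRP lay 271 bases. CCDC107 had 192 and 290 counts, a CPM ratio of 1.55 (1.29 to 1.87), while RMRP was lower. Between the first bases of PARP2, the gene of a DNA damage response enzyme, and RPPH1 lay 174 bases. PARP2 had 182 and 250 counts, a CPM ratio of 1.41 (1.16 to 1.71), beside 1.42 for RPPH1. PARP2 and the 638-base RPPH1 entry overlap on opposite strands. ARHGEF39, which ends with 856 bases between it and RMRP, had 557 and 309 counts, a CPM ratio of 0.569. The pseudogene rows RMRPP5, RPPH1-2P and RPPH1-3P had 0 counts in both libraries.

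None of the 8 protein subunit genes was at least 2-fold different between the libraries. Of the 8, 6 reached 1 FPKM in the higher library, and RPP30 and RPP38 did not. Over those 6 the log2 ratios ran from -0.22 to 0.31, with a median of 0.054 beside -0.15 over all expressed rows; over the same genes and rows TPM rescaling gave -0.28 beside -0.48. Without RPP40, which is expressed in its higher library alone, the median of the other 5 was -0.069. With no filter it was -0.070 over the 8 genes beside -0.043 over the 24515 rows with a count, so the order of members and all rows turns with the filter. As background, 2.53% of the 8957 expressed rows (227) were higher by 2-fold or more and 6.2% (555) were lower by as much; after centring on the median these were 345 and 358 rows. Among all 10 members, with RMRP and RPPH1 as sums, 8 were expressed, 0 were at least 2-fold higher and 1, RMRP, was at least 2-fold lower. Since the value of RMRP was known when the members were chosen, nothing is read from that count.

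**Figure D3:**
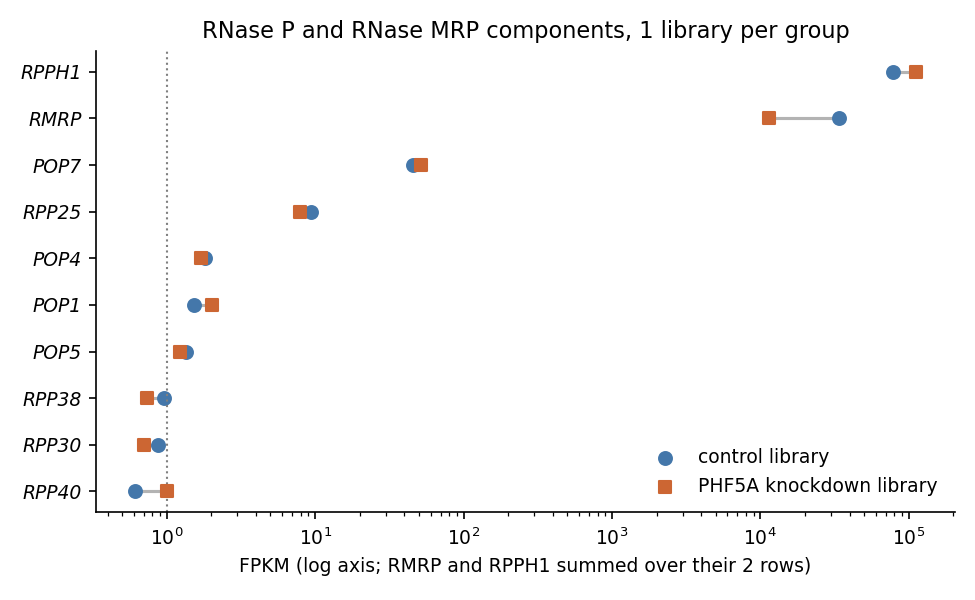
FPKM on a log axis of the 10 members in the control (circles) and PHF5A knockdown (squares) libraries, with RMRP and RPPH1 summed over their rows and a dotted line at 1 FPKM. RMRP is the member with the widest gap, 33725 against 11423 FPKM, and 7 of the 8 protein genes lie under 10 FPKM in both libraries.

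POP7 and RPP25 encode partners that bind the P3 domain of both RNAs as a dimer. POP7 (chromosome 7, 100706053 to 100707495) was the protein gene with the highest level, 45.5 FPKM with control siRNA and 51.5 with PHF5A siRNA. It had 1703 and 1881 counts, a CPM ratio of 1.13 (1.06 to 1.21), and its log2 ratio of 0.18 turned to -0.24 with TPM rescaling. RPP25 (chromosome 15, 74954416 to 74957464) had 754 and 620 counts, or 9.31 and 7.85 FPKM, a CPM ratio of 0.843 (0.757 to 0.939). The log2 ratio of RPP25, -0.22, was -0.60 with TPM rescaling and 0.028 with upper-quartile scaling, where POP7 was at 0.45, so both lay on the same side of 0 under either scaling. RPP25 overlaps SCAMP5, read from the other strand and counted at 0.515 and 0.598 FPKM, and without the strand setting of the counting their shared reads cannot be told apart. RPP25L, a close paralogue of RPP25 that was not a member, had 68.0 and 61.2 FPKM, which is 7.30 and 7.80 times the FPKM of RPP25. RPP25L had 2045 and 1796 counts and an implied length of 1133 bases against 3049 for RPP25. The gap between them was thus smaller in counts than in FPKM. The CPM ratio of RPP25L was 0.900 (0.845 to 0.960).

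POP1 encodes the largest protein subunit and POP4 and POP5 encode core subunits with archaeal counterparts. POP1 (chromosome 8, 98117297 to 98159834) had 251 and 320 counts, or 1.54 and 2.01 FPKM, a CPM ratio of 1.31 (1.10 to 1.55); its log2 ratio of 0.25 was -0.023 with TPM rescaling. POP4 (chromosome 19, 29604017 to 29617237) had 454 and 411 counts, or 1.83 and 1.69 FPKM, a CPM ratio of 0.928 (0.810 to 1.06). POP5 (chromosome 12, 120578764 to 120581398) had 198 and 177 counts, or 1.34 and 1.23 FPKM, a CPM ratio of 0.917 (0.744 to 1.13). For POP4 and POP5 the counting interval included 1.

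RPP30, RPP38 and RPP40 were the protein members of lowest level. RPP30, the partner of POP5 (chromosome 10, 90871716 to 90908553), had 153 and 121 counts, or 0.872 and 0.707 FPKM, a CPM ratio of 0.811 (0.633 to 1.04). RPP38, which belongs to the L7Ae family of kink-turn binding proteins (chromosome 10, 15097180 to 15139818), had 180 and 135 counts, or 0.955 and 0.734 FPKM, a CPM ratio of 0.769 (0.611 to 0.967). Its row overlaps NMT2 on the other strand, which had 144 and 116 counts, and reads in the overlap cannot be told apart. RPP40 (chromosome 6, 4994732 to 5004063) had 55 and 88 counts, or 0.615 and 1.01 FPKM, a CPM ratio of 1.64 (1.16 to 2.34). That was the highest ratio of the 8 and rested on the fewest counts. RPP40 reached 1 FPKM in the knockdown library alone, so it counts as expressed because of its higher library. Over 8 scalings and pseudocounts the log2 ratio of RPP40 was above 0 in 8, from 0.14 to 0.71, and that of RPP38 in 0, from -0.39 to -0.025. POP4 and POP5 were above 0 in 3 of the 8, RPP25 and RPP30 in 1 and POP1 and POP7 in 7.

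**Figure D4:**
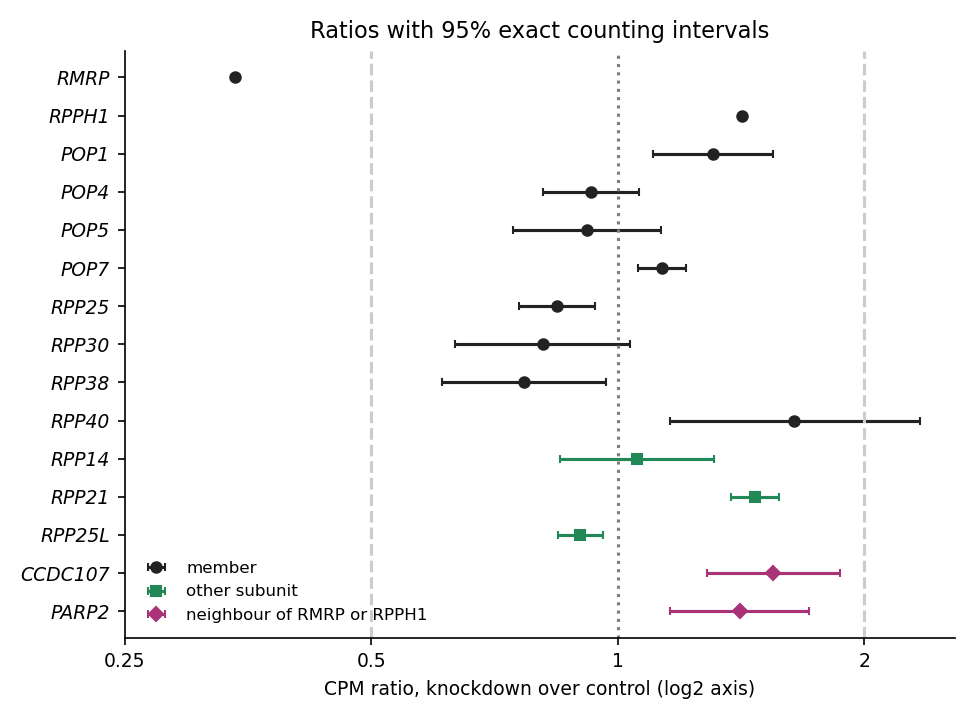
CPM ratio of knockdown to control (log2 axis; dotted line at 1, dashed lines at 0.5 and 2) with 95% exact counting intervals for the 10 members, the 3 other nuclear subunits and the neighbours CCDC107 and PARP2. RMRP alone lies under 0.5; among the protein members the intervals of POP1, POP7 and RPP40 lie above 1 and those of RPP25 and RPP38 below it.

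By level, the protein genes of the control library ran from POP7 over RPP25, POP4, POP1, POP5, RPP38 and RPP30 to RPP40. The exact Poisson intervals of the counts overlapped between POP4 and POP1, between POP1 and POP5, between RPP38 and RPP30 and between RPP30 and RPP40. In the knockdown library POP1 stood above POP4 and RPP40 above RPP38 and RPP30, and in each of these places the intervals of neighbours overlapped. The RNAs stood far above the proteins on the FPKM scale. RMRP had 741 times the FPKM of POP7 in the control and 222 times after knockdown, and RPPH1 had 1728 and 2164 times. FPKM per length is the only scale on which these levels are set side by side. The lengths implied by count and FPKM were 5545 bases for POP5 and 1410 for POP7. That of POP5 is longer than its span on the chromosome, 120578764 to 120581398. The order and the ratios of levels between genes therefore depend on these lengths.

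The remaining nuclear subunits were not members. RPP21, a subunit of RNase P, had 1454 and 2084 counts, or 14.5 and 21.3 FPKM, a CPM ratio of 1.47 (1.37 to 1.57) beside 1.42 for RPPH1; its log2 ratio of 0.53 was 0.13 with TPM rescaling. RPP14 had 170 and 175 counts and stayed under 1 FPKM, with a ratio of 1.06 (0.850 to 1.31). Mitochondria use an RNase P made of protein alone. Its 3 genes were expressed, and 0 of them were 2-fold different, beside 6.2% of all expressed rows lower and 2.53% higher by as much. The log2 ratios were 0.42 for TRMT10C, 0.24 for HSD17B10 and -0.27 for KIAA0391, the nuclease subunit. Their median of 0.24 turned to -0.18 with TPM rescaling.

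Factors that act on tRNAs after RNase P come next. Of 5 genes of the tRNA 3′ end, ELAC2, the nuclease that removes the 3′ trailer, was the only one expressed, with a log2 ratio of -0.25. Under 1 FPKM in both libraries, SSB had 60 and 113 counts, a CPM ratio of 1.93 (1.40 to 2.69). TRNT1, also under 1 FPKM, had 138 and 194 counts, a ratio of 1.44 (1.15 to 1.81). For ELAC1 and LARP7 the counting interval included 1, so the direction of this list turns with the filter. Of 12 genes of tRNA splicing and ligation 8 were expressed, with a median of -0.056 (-0.41 with TPM rescaling over the same genes). Beside 6.2% of all expressed rows lower by 2-fold or more and 2.53% higher, 1 of the 8 was lower and 0 were higher. That gene was TSEN54, a subunit of the tRNA splicing endonuclease, with 3481 and 1281 counts, 18.1 and 6.83 FPKM and a log2 ratio of -1.29. FAM98B, of the tRNA ligase complex, was at 0.46, CLP1, an RNA kinase, at -0.40 and RTCB, the ligase itself, at -0.37.

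Factors that transcribe RMRP and RPPH1 were listed as well. Of 10 factors of these promoters 4 were expressed, with a median of 0.079 (-0.23 with TPM rescaling), and 1 was at least 2-fold higher and 0 lower. SNAPC2, a subunit of the complex that binds the proximal sequence element, had 1185 and 2434 counts, or 13.6 and 28.7 FPKM, a log2 ratio of 1.02 that was 0.63 with TPM rescaling. SNAPC4, the subunit with the DNA-binding Myb repeats, was at -0.47, BRF2, the initiation factor particular to these promoters, at 0.20 and TBP at -0.046. Under 1 FPKM in both libraries, BDP1 had 163 and 81 counts, a CPM ratio of 0.510 (0.385 to 0.669). SNAPC1, also under 1 FPKM, had 21 and 37 counts, a ratio of 1.81 (1.03 to 3.25). By counts 3 of the 10 factors had an interval above 1 and 2 had one below it. Of 14 genes of polymerase III and its regulators 10 were expressed, with a median of -0.25 (-0.55 with TPM rescaling and -0.10 after centring on the median). POLR3C was at -0.82, POLR1C at -0.76, POLR3A, the largest subunit, at -0.58 and POLR3K at -0.56. On this FPKM + 1 scale 0 of the 10 were 2-fold different, beside 6.2% of the expressed rows lower and 2.53% higher. By counts POLR3C, with 325 and 138, had a CPM ratio of 0.435 (0.354 to 0.533). Of the 14 genes, 8 had a counting interval below 1 and 2 had one above it. The genes named here are single genes of short lists.

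Of 18 other short RNAs with polymerase III promoters 4 had a row, and the remaining 14 were not analysed here. The row of BCYRN1 had 5 and 12 counts and an implied length of 13460 bases, so it is not the row of a short RNA alone. RN7SK, which holds back the elongation factor P-TEFb, was at a log2 ratio of 1.13, RN7SL1, of the signal recognition particle, at 0.53 and RN7SL2 at 0.48. All 3 were higher in the knockdown library as RPPH1 was, and RMRP was lower. With TPM rescaling the median of the 3 was 0.11, beside 0.083 for RPPH1 and -1.98 for RMRP.

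**Figure D5:**
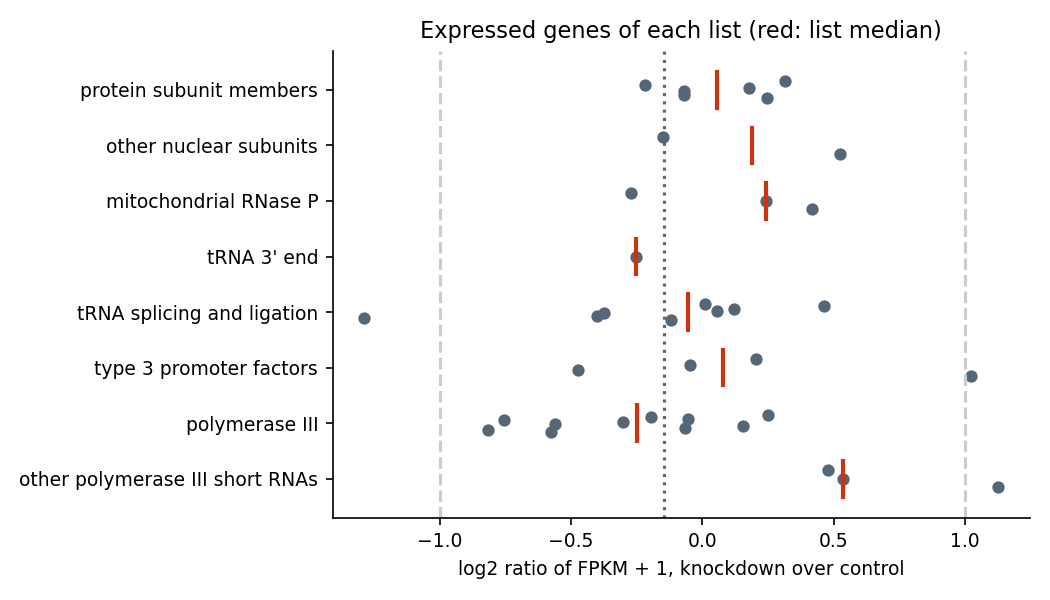
Log2 ratio of FPKM + 1, knockdown over control (horizontal axis), of the expressed genes of each list; each point is 1 gene, the red bar is the list's median, the dotted line is the median of all expressed rows at -0.15 and the dashed lines mark 2-fold. The protein subunit members lie between -0.22 and 0.31, and the genes plotted past 2-fold are TSEN54, SNAPC2 and RN7SK.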

How the data were processed

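Per the labels' protocols, Trizol served for RNA extraction and libraries came from a TruSeq Stranded Total RNA kit. The submitters' processing notes name HISAT2 2.0.4, Cuffdiff and GRCh38. Annotation release and strand setting were not given in the sources used here. Per the file headers, the deposited table gives for each gene and library a raw count and an FPKM. The deposited FPKM is the count over 1 length per gene and the library total: the implied lengths of both libraries differed by at most 0.0241%. This length can be longer than the span of the gene, as for POP5, which lowers its FPKM beside that of other genes. Of 50869 lines 2 were left out, a broken entry of 1 gene. Gene type and strand came from GENCODE 29 by identifier, which matched 50110 rows.

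The members and lists were chosen with earlier results of these data known. Log2 ratios used FPKM after adding a pseudocount of 1, which shrinks the change of low genes, with a minimum of 1 FPKM in the higher library and a 2-fold threshold. CPM ratios carry exact conditional binomial (Clopper-Pearson) 95% intervals and levels exact Poisson ones; both cover counting error only, since reads are not independent molecules. Rows of 1 name were summed. In the polymerase III list 1 gene is not reported here. Named were all members, rows within 1000 bases, RPP14, RPP21 and RPP25L, up to 4 expressed genes per list with the largest absolute ratio and the 5 short rows closest to each RNA. Some genes under 1 FPKM were named besides. Of the rows within 1000 bases, HRSP12 near POP1, C10orf111 overlapping RPP38 and RP11-203M5.2 near RPPH1 stayed under 1 FPKM and are not described above. Alternatives were other pseudocounts, filters, thresholds and scalings. The procedure was tested on simulated counts with Poisson error alone. They hold no spread between replicates and no overlapping entries, so that test bears on the arithmetic only. Software was matplotlib 3.10.9, scipy 1.17.1, pandas 2.3.3 and numpy 2.4.6 on Python 3.11.15. Effects of this siRNA on other transcripts cannot be told apart from loss of PHF5A.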

Additional observations from a re-analysis of the deposited data

How the results depend on the processing

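No paired analysis was possible because each group held a single library. The log2 ratio of the RMRP sum, -1.56, was -1.41 with centring on the median, -1.28 with upper-quartile scaling, -1.98 with TPM rescaling, -1.40 without rows under 500 bases in the library total and -1.41 without the 7SK, 7SL and RPPH1 rows. The 264-base entry alone gave -2.30 and the 268-base entry 9.86. For RPPH1, 0.50, the same scalings gave 0.65, 0.78, 0.083 and 0.67, leaving out the 7SK, 7SL and RMRP rows gave 0.62, and the 638-base entry alone gave 0.78. The median of the protein subunits, 0.054, was 0.27 with upper-quartile scaling and -0.34 with TPM, where the filter follows the scaling and lets in other members; with the members expressed as deposited these were 0.27 and -0.28, and without RPP40 it was -0.069, values added after the others were seen. This median was -0.070 with no filter and -0.022 with a minimum of 5 FPKM, where POP7 and RPP25 alone remained. None of the 8 passed 2-fold, or 1.5-fold on the FPKM + 1 scale. The median of the other listed genes, -0.053, was -0.39 with TPM and 0.095 with centring. Leaving RNAs out of the total and scaling genes that are no members were added after the values were seen. Over all 8957 expressed rows, 227 were higher and 555 lower. Over the same rows these became 345 and 358 with centring, 469 and 1129 with a pseudocount of 0.1 and 757 and 1631 at 1.5-fold. With TPM they were 107 and 1405 of 9664 rows, and with a minimum of 5 FPKM 131 and 309 of 4043. The last 2 pairs thus have other totals and are not to be read as a rise or fall in share. The cause was not tested. For single genes and lists, 117 other alternative values moved by more than their error and 310 did not. Among these genes PHF5A, TSEN54 and SNAPC2 alone were past 2-fold, and none of them changed sign. Smaller ratios could change sign, as that of HSD17B10 did, from 0.24 to -0.18 with TPM. RPP40, the protein member of lowest depth, rests on 55 and 88 counts.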

Other observations

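Values of some RNAs linked to these enzymes were looked up after the other values had been seen. MALAT1 and NEAT1 are long nuclear RNAs whose 3′ ends are known to be cut by RNase P at a tRNA-like structure. MALAT1 had 8610 control and 1662 knockdown counts, or 19.2 and 3.80 FPKM, and was 5.05-fold lower by CPM (4.79 to 5.33). NEAT1 had 2568 and 610 counts, or 3.71 and 0.903 FPKM, and was 4.11-fold lower (3.76 to 4.49). Both were lower while RPPH1 was higher; no link between these values was tested.

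TERT, the telomerase protein, which has been reported to bind RMRP, had 186 and 112 counts, a CPM ratio of 0.617 (0.484 to 0.785). The telomerase RNA, summed over its overlapping entries, had 20209 and 27136 counts, a CPM ratio of 1.38 (1.35 to 1.40), in the direction of RPPH1 and not of RMRP. Its longer entry alone, TERC, had 531 and 163 counts, a log2 ratio of -1.59, so for this RNA too the row decides the direction.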
